A study of Homo sapiens with 6 samples.

Results

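The 10 cytokine genes described here are CSF3, CSF2, IL6, LIF, CXCL8, CXCL1, CXCL2, CXCL3, IL1A and IL1B. They were found by NCBI Gene ID among the 16623 genes of the files, and all 10 were present. The group was selected on the FPKM of CSF3, which was lower than that of DMSO in all 4 drug comparisons, and the other genes were added as related cytokines with earlier results of these data known. The CSF3 values below are therefore a description and carry no test. MDA-MB-231 cells, a human triple-negative breast cancer line grown as an adherent culture, received DMSO, the solvent, or PCI-24781, an inhibitor of histone deacetylases (HDACs), at 100 nM or 200 nM. RNA was sequenced after 24 h or 48 h. This gave 6 libraries, named DMSO 24 h, 100 nM 24 h, 200 nM 24 h, DMSO 48 h, 100 nM 48 h and 200 nM 48 h, with 1 library per condition. No difference between conditions therefore has a replicate check.

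These genes encode secreted signals of inflammation. CSF3 (G-CSF) drives the production of neutrophils, and CSF2 (GM-CSF) drives that of granulocytes and macrophages. IL6 and LIF signal through the shared receptor subunit gp130 and the JAK-STAT pathway. CXCL8 (interleukin-8), CXCL1, CXCL2 and CXCL3 attract neutrophils through the receptors CXCR1 and CXCR2, and IL1A and IL1B activate the interleukin-1 receptor, which turns on NF-kB. NF-kB, AP-1 and C/EBP factors are known regulators of many of these genes, and MDA-MB-231 is known as a line with much autonomous cytokine production.

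The authors gave expression as FPKM, that is, the fragments of a gene relative to the length of its transcript and to all mapped fragments. The depth was not given. The spacing of the low values put it at 15650000 to 17950000 fragments per library. The intervals given for ratios use fragment numbers inferred in this way, are exact 95% binomial intervals and cover counting error alone, so that culture-to-culture variation lies outside them. Each change is the difference in log2(FPKM + 1) between 2 libraries. A gene was called higher or lower where this difference reached 2-fold and where one of the libraries compared had an FPKM no lower than 1. All 10 genes passed this filter in each comparison with DMSO. The median log2 change of all tested genes was between -0.01 and 0.01 in these comparisons. The labelled cell line was checked by its markers. VIM had an FPKM between 1629.38 and 2053.39, ESR1 stayed at or below 0.04 and PGR at or below 0.03, and ERBB2, which was listed as low, had 13.16 to 21.36. Since these are bulk samples, fewer cells of a kind and less RNA per cell cannot be told apart.

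CXCL8 was the most abundant of these genes, with an FPKM from 11.60 to 67.12 over the 6 libraries. IL1B followed with 3.45 to 38.17, then CXCL1 with 9.33 to 20.59, IL6 with 2.99 to 21.58 and LIF with 7.63 to 11.38. CXCL2 ranged from 2.79 to 10.14, CXCL3 from 0.93 to 2.93, CSF2 from 0.89 to 2.69, IL1A from 0.13 to 3.57 and CSF3 from 0.12 to 1.56. In this order by mean, the ranges of neighbouring genes overlapped. LIF varied least, with a highest value 1.49 times its lowest, and IL1A most, at 27.5 times. CSF3 was the least abundant gene of the group, and its mean FPKM lay at the percentile 30.9 of all genes.

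**Figure D1:**
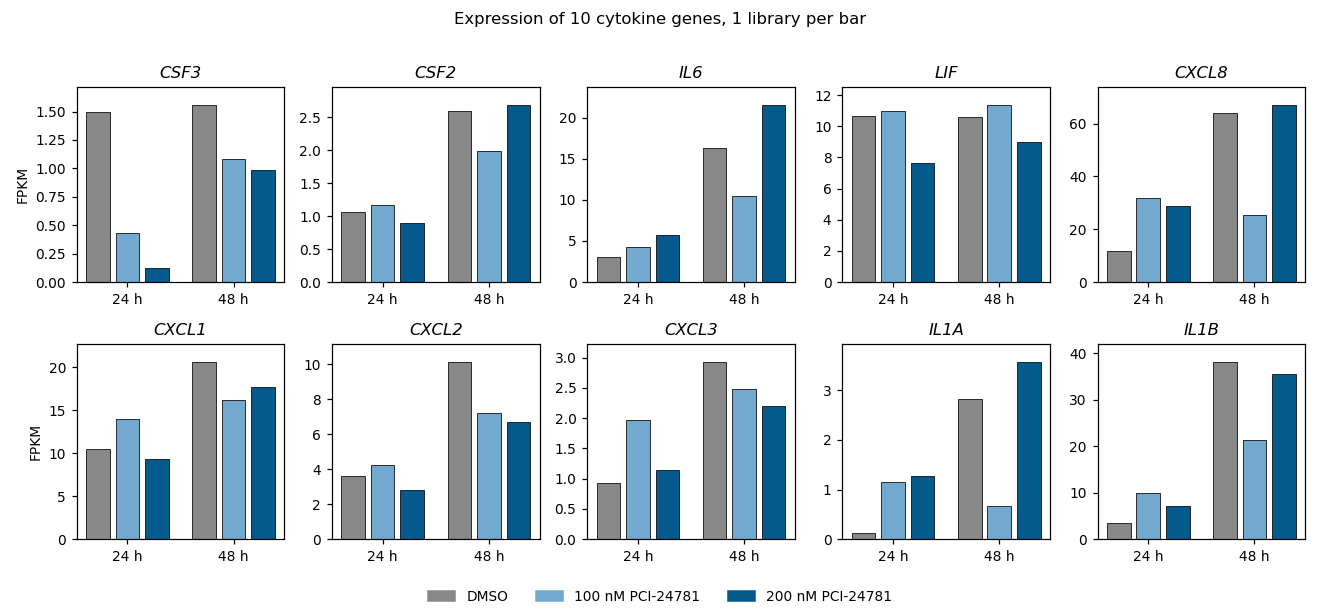
FPKM of the 10 genes (1 panel each, linear axis from 0) in the 6 libraries, with bars for DMSO, 100 nM and 200 nM PCI-24781 at 24 h and 48 h, and no error bars since each bar is 1 library. CSF3 is lowest in the 200 nM 24 h library at 0.12, and IL1B is highest in DMSO 48 h at 38.17.

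The genes lie in the following places, in the coordinates of the files, with build hg19 named in the submitters' processing notes. CSF3 is on chromosome 17 from 38171614 to 38174066, CSF2 on chromosome 5 from 131409485 to 131411863, IL6 on chromosome 7 from 22766761 to 22771621 and LIF on chromosome 22 from 30636436 to 30642840. The chemokine genes lie together on chromosome 4, CXCL8 from 74606223 to 74609433, CXCL1 from 74735109 to 74737019, CXCL3 from 74901863 to 74904490 and CXCL2 from 74962752 to 74964997. IL1A (113531492 to 113542975) and IL1B (113587337 to 113594356) are neighbours on chromosome 2.

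The bases before the start of 8 of the genes were read from RefSeq promoters of build GRCh38.p14, in which IL1A has an entry for each of 2 starts. The promoter set used here held no entry for CSF3 or LIF. The 160 bases upstream of the start, 5′ to 3′ on the strand of the gene, are shown for all 8 genes, for IL1A at 1 of its starts, so that the sequences of genes with like and unlike levels can be compared. Capitals mark matches, on either strand, to the NF-kB motif (GGGRNNYYCC), the CK-1 element known from colony-stimulating factor genes (AGATTCC), C/EBP (TTNNGNAAT), AP-1 (TGANTCA) and TATAAA. In these letters N is any base, R is A or G, and Y is C or T.
CXCL1, chr4:73869233-73869392, plus strand: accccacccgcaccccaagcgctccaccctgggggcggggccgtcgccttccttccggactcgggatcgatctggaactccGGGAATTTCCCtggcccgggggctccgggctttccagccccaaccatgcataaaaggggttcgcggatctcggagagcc
CXCL2, chr4:74099196-74099355, minus strand: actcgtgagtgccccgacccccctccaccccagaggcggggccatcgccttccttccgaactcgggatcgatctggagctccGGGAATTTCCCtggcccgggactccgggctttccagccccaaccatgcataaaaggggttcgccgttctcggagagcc
CXCL3, chr4:74038690-74038849, minus strand: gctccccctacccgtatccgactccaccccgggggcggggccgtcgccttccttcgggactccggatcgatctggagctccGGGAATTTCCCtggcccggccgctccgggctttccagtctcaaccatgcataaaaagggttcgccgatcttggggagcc
CXCL8, chr4:73740409-73740568, plus strand: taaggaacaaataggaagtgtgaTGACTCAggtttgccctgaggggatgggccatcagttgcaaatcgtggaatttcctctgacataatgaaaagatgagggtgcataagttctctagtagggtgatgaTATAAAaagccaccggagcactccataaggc
IL6, chr7:22727040-22727199, plus strand: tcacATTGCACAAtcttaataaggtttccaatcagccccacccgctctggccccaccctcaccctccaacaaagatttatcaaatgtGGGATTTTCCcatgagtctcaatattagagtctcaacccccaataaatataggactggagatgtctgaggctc
IL1A, chr2:112784494-112784653, minus strand: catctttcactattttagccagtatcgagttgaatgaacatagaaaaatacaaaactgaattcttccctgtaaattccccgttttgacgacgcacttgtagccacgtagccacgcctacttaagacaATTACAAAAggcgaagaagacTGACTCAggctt
IL1B, chr2:112836780-112836939, minus strand: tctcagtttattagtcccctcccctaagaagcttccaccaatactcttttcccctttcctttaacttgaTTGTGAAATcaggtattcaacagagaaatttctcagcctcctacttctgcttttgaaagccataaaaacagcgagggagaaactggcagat
CSF2, chr5:132073629-132073788, plus strand: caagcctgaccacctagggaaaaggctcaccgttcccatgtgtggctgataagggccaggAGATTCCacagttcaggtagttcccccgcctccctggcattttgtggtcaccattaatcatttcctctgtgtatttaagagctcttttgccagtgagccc

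The windows of CXCL1, CXCL2 and CXCL3 shared much of their sequence, with 134 to 137 of 160 bases identical in pairwise alignment. Each held the NF-kB match GGGAATTTCC, beginning 79, 78 and 79 bases before the start, in that order, and overlapping a match on the other strand that begins 1 base further on. IL6 held GGGATTTTCC from 73 bases before the start and a C/EBP match on the other strand. In CXCL8, an AP-1 match lay 137 bases and a TATAAA 31 bases before the start. Its window also holds tggaatttcc, which differs from the NF-kB letters used at the first base and was not marked. Other forms of the motifs were not searched. IL1A had a C/EBP match from 33 and an AP-1 match from 12 bases before this start. IL1B held a C/EBP match and CSF2 a CK-1 match. In the 250 bases before the start, 9.96% of 35116 promoters had an NF-kB match, 2.85% a CK-1 match, 9.85% a C/EBP match, 6.57% an AP-1 match and 10.7% a TATAAA. A match is a description of these letters and not evidence of binding.

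The values of CSF3 at 24 h were 1.5 FPKM in DMSO, 0.43 at 100 nM and 0.12 at 200 nM. At 48 h they were 1.56 in DMSO, 1.08 at 100 nM and 0.99 at 200 nM. All 4 drug libraries lay below both DMSO libraries, which were nearly equal, and the lowest values were those at 24 h. The log2 changes were -0.81 and -1.16 at 24 h, for 100 nM and 200 nM, and -0.30 and -0.36 at 48 h. On this scale, with 1 added to each FPKM, the change at 200 nM 24 h was the one past 2-fold. The FPKM ratio without the added 1, given below, was past 2-fold at 100 nM 24 h too. CSF3 is expressed at a low level, and these values stand for about 43, 12 and 3 fragments at 24 h and about 43, 31 and 25 at 48 h, in the order DMSO, 100 nM and 200 nM. An FPKM of 0.12 at 200 nM 24 h is thus at the value of 3 fragments, which is 0.11 to 0.12 for this transcript of 1583 bases. The FPKM in DMSO was 3.49 times that at 100 nM 24 h (counting interval 1.81 to 7.28) and 12.5 times that at 200 nM 24 h (4.42 to 69.6). At 48 h it was 1.44 times that at 100 nM (0.88 to 2.35) and 1.58 times that at 200 nM (0.92 to 2.64). These intervals describe the counting error of the values that chose the group and are no test.

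Of 11293 genes tested in all 4 drug comparisons, 1272 were lower in all 4 by any amount, which is 11.3%. CSF3 was the single cytokine gene of the 10 among them, and none of the 10 was higher in all 4. The gene closest to the rule without meeting it was CSF2, with a largest change of 0.08. The smallest change of CSF3 was -0.30, at 100 nM 48 h. In every drug comparison, 5 genes, CSF3 included, lay at least that far below DMSO. CSF3 was chosen because it was lower in all 4, so its presence among the genes lower in all 4 follows from that choice. Its place among the 5 genes reuses the same values, so it is a description and carries no test.

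The genes whose profile over the 6 libraries was most like that of CSF3 were RNLS, TMEM265, PIK3CA, NIPSNAP3A and MDP1. Likeness was measured as the root mean square difference between log2(FPKM + 1) profiles, each minus its mean, over the 11418 genes whose mean FPKM reached 1. CSF3 itself has a mean of 0.947. The difference was 0.12 for RNLS, 0.14 for TMEM265 and 0.16 for PIK3CA, NIPSNAP3A and MDP1, against a median of 0.46 over all genes. RNLS, which encodes the secreted flavoprotein renalase, had an FPKM of 2.88, 1.86 and 1.02 at 24 h in DMSO, 100 nM and 200 nM, and 3.37, 2.95 and 2.64 at 48 h. PIK3CA, the catalytic subunit of a phosphoinositide 3-kinase, had 13.21, 9.61 and 5.24 at 24 h, against 12.74, 12.42 and 11.14 at 48 h. No cytokine gene of the 10 was among the closest genes. LIF came nearest to CSF3 with a difference of 0.35, and IL1B was farthest at 1.1.

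**Figure D2:**
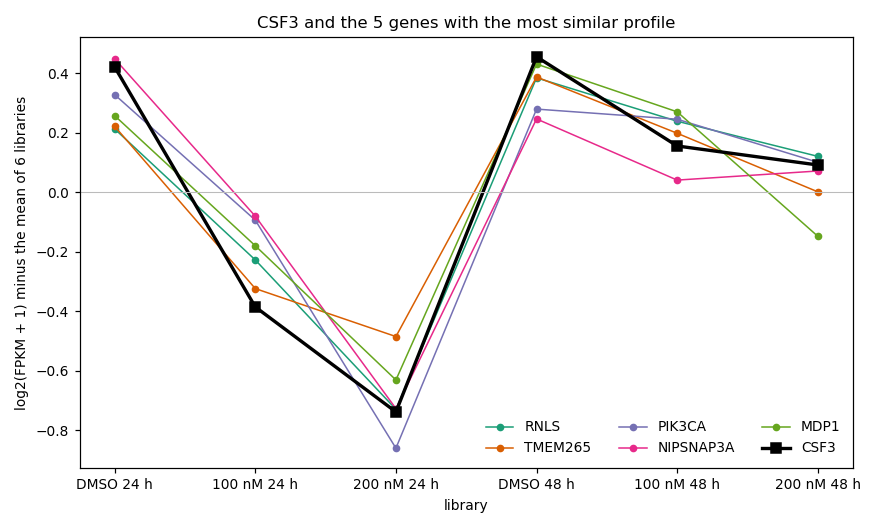
Profiles of CSF3 (black squares) and the 5 genes most like it, as log2(FPKM + 1) minus the mean of the 6 libraries on the vertical axis, with 1 library at each position of the horizontal axis. All 6 genes have their lowest value in the 200 nM 24 h library.

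The other colony-stimulating factor gene, CSF2, had 24 h values of 1.06 FPKM with DMSO, 1.17 with 100 nM and 0.89 with 200 nM, while those of 48 h were 2.60, 1.99 and 2.69. The 3 values at 24 h lay below the 3 at 48 h. Its log2 changes against DMSO of the same time were between -0.27 and 0.08, and none was called. These values stand for about 12 to 36 fragments.

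IL6 differed mainly by time. Its FPKM at 24 h was 2.99 with DMSO, 4.29 with 100 nM and 5.68 with 200 nM, and at 48 h it was 16.37 with DMSO, 10.42 with 100 nM and 21.58 with 200 nM. All 3 libraries of 48 h lay above all 3 of 24 h. Against DMSO its log2 changes at 24 h were 0.41 and 0.74, those at 48 h were -0.61 and 0.38, and none was called. LIF, which signals through the same receptor subunit, had 10.68, 11 and 7.63 at 24 h, against 10.58, 11.38 and 9.01 at 48 h. At both times the 200 nM library was the lowest of its time, with log2 changes of -0.44 and -0.21.

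CXCL8 was higher with PCI-24781 at 24 h and lower at 100 nM 48 h. The 24 h libraries had an FPKM of 11.60 with DMSO, 31.83 with 100 nM and 28.69 with 200 nM, and those of 48 h had 64.05, 25.44 and 67.12. The DMSO 24 h library was the lowest of the 6, and the 100 nM 48 h library lay below the other two of its time. The FPKM was 2.74 times that of DMSO at 100 nM 24 h (counting interval 2.43 to 3.11) and 2.47 times at 200 nM 24 h (2.18 to 2.81). At 100 nM 48 h the ratio was 0.397 (0.365 to 0.432), and at 200 nM 48 h it was 1.05 (0.982 to 1.12). CXCL8 was called higher at both doses at 24 h and lower at 100 nM 48 h.

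The related chemokine genes CXCL1, CXCL2 and CXCL3 had no called difference from DMSO at either dose or time. CXCL1 had 10.43, 13.96 and 9.33 FPKM at 24 h and 20.59, 16.17 and 17.64 at 48 h, in the order DMSO, 100 nM and 200 nM. CXCL2 had 3.61, 4.24 and 2.79 at 24 h, against 10.14, 7.22 and 6.71 at 48 h. CXCL3 had 0.93, 1.97 and 1.14 at 24 h, against 2.93, 2.48 and 2.2 at 48 h. In each of the 3 genes, 100 nM was the highest library of 24 h, DMSO was the highest of 48 h, and every 48 h value lay above every 24 h value. Of the profiles of the 10 genes, those of CXCL1 and CXCL3 were closest, with a root mean square difference of 0.12. Between the transcripts, 5.73% of the 50-base windows of CXCL1 and 4.62% of those of CXCL2 also occur in CXCL2 and CXCL3, respectively, so part of the fragments could be assigned to either gene.

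With 1 added to each FPKM, each interleukin-1 gene was called higher at a single dose at 24 h. This dose was 100 nM for IL1B and 200 nM for IL1A. The FPKM ratios without the added 1, given below, were past 2-fold at both doses for both genes. IL1A was called lower at 100 nM 48 h. The 24 h libraries had an IL1B value of 3.45 FPKM with DMSO, 10.02 with 100 nM and 7.13 with 200 nM, and those of 48 h had 38.17, 21.31 and 35.68. The 48 h libraries all lay above the 24 h libraries, and DMSO 24 h was the lowest. Its ratio to DMSO was 2.90 at 100 nM 24 h (counting interval 2.30 to 3.67) and 2.07 at 200 nM 24 h (1.62 to 2.65). Its log2 change at 100 nM 48 h was -0.81, which was not called. IL1A had 0.13 FPKM with DMSO, 1.15 with 100 nM and 1.28 with 200 nM at 24 h, while its values at 48 h were 2.82, 0.67 and 3.57. The DMSO 24 h value rests on about 5 fragments. Relative to it, the 24 h FPKM of IL1A was 8.85 times as high with 100 nM (counting interval 3.50 to 28.5). With 200 nM it was 9.85 times as high (3.90 to 31.4), so these intervals overlapped widely. On the log2 scale IL1A changed by 0.93 with 100 nM, which was not called, and by 1.01 with 200 nM. Its log2 change at 100 nM 48 h was -1.19. With median-of-ratios scaling the change at 200 nM 24 h was 0.99, just short of 2-fold. The profile of IL1A was closest to that of CXCL8, at a difference of 0.20.

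**Figure D3:**
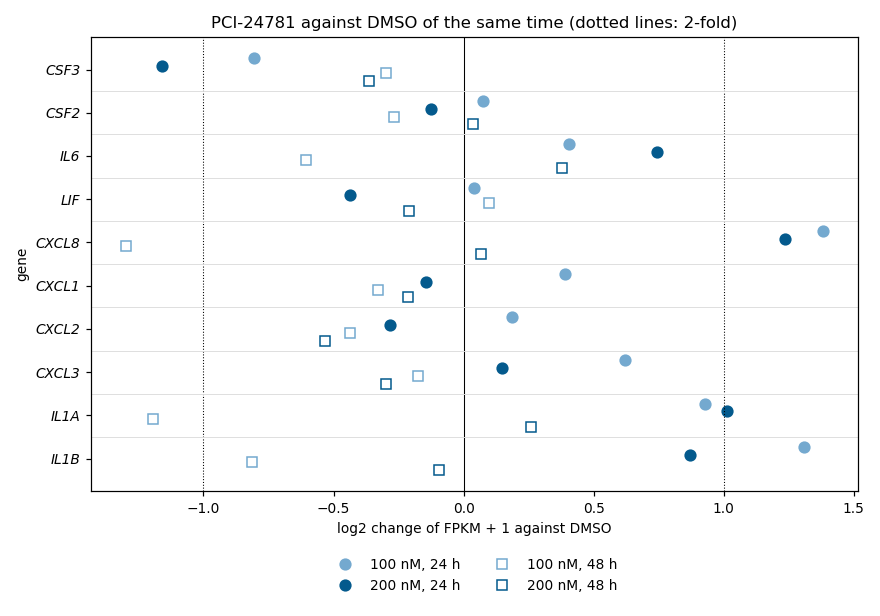
Log2 change of FPKM + 1 against DMSO of the same time (horizontal axis) for the 10 genes (vertical axis), with filled circles for 24 h, open squares for 48 h, light blue for 100 nM and dark blue for 200 nM, and 1 library per point. CSF3 lies left of 0 in all 4 comparisons, while CXCL8, IL1A and IL1B lie right of 0 at 24 h and left of 0 at 100 nM 48 h.

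At 100 nM 24 h, 2 of the 10 genes were called higher (CXCL8 and IL1B), against 1.35% of 11475 tested genes, and 0 were called lower, against 0.131%. At 200 nM 24 h, 2 were called higher (CXCL8 and IL1A), against 4.49% of 11660 genes. CSF3 was called lower there, where the share of all tested genes was 1.48%. Since the values of CSF3 chose the group, its call is a description and is not to be weighed against that share. The other genes were added with earlier results of these data known, so their counts are a description too. At 100 nM 48 h, 0 were called higher, against 0.0608% of 11514 genes, and 2 were called lower (CXCL8 and IL1A), against 0.408%. At 200 nM 48 h, 0 genes were called higher, against 0.206% of 11665, and 0 lower, against 0.06%. The median log2 change of the 10 genes was 0.40, 0.01, -0.38 and -0.15 in the same order. The drug comparisons of one time share their DMSO library, so their values are not independent. The labels of the 48 h libraries were taken as given and were not tested. If those of DMSO 48 h and 100 nM 48 h were exchanged, each change between them, that of CSF3 included, would have the opposite sign, and the other comparisons that use either library would have other values.

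The largest differences of these genes were between the times. From DMSO 24 h to DMSO 48 h, 6 of the 10 genes were called higher, IL6, CXCL8, CXCL2, CXCL3, IL1A and IL1B, against 2.49% of 11490 tested genes, and 0 were called lower, against 0.131%. CXCL3 (0.93) and IL1A (0.13) were below an FPKM of 1 in DMSO 24 h and passed the filter through DMSO 48 h, where they were high. With an FPKM of 1 required in both libraries, IL6, CXCL8, CXCL2 and IL1B remained, beside 200 of 10970 genes. These counts are a description of genes chosen with earlier results known. The median log2 change of the 10 was 1.15. IL1B had a log2 change of 3.14, with an FPKM at 48 h 11.1 times that at 24 h (counting interval 8.99 to 13.7). IL1A had a change of 1.76 and a larger FPKM ratio, 21.7 (8.88 to 67.3), from about 5 fragments at 24 h. On the log2 scale the order of these genes turned with the pseudocount, with 4.34 for IL1A and 3.46 for IL1B at 0.01. The ratio was 5.52 for CXCL8 (4.93 to 6.20) and 5.47 for IL6 (4.19 to 7.32). CSF3 and LIF had changes of 0.03 and -0.01. Time in culture and any property of the DMSO 24 h library cannot be told apart by this comparison.

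The same step was therefore read in the drug libraries, which share no library with it. This was chosen after the values were seen. At 100 nM, IL6 and IL1B were called higher at 48 h than at 24 h, 2 of 10, against 0.961% of 11556 genes, with changes of 1.11 and 1.02, and 0 were called lower, against 0.857%. CXCL8 (-0.31) and IL1A (-0.36) lay below 0. At 200 nM, where CSF3 did not pass the filter, 5 of the 10 were called higher, IL6, CXCL8, CXCL2, IL1A and IL1B, against 0.748% of 11760 genes, and 0 lower, against 0.179%. IL6 and IL1B were thus called higher at 48 h in all 3 treatments. CSF3 had changes of 0.54 at 100 nM, which was not called, and 0.83 at 200 nM, which was not tested. Its FPKM ratio of 48 h to 24 h was 2.51 at 100 nM (counting interval 1.25 to 5.37) and 8.25 at 200 nM (2.80 to 47.5), the latter resting on about 3 fragments at 24 h. The medians of the 10 genes were 0.35 at 100 nM and 0.98 at 200 nM, against -0.04 and 0.00 over all tested genes.

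**Figure D4:**
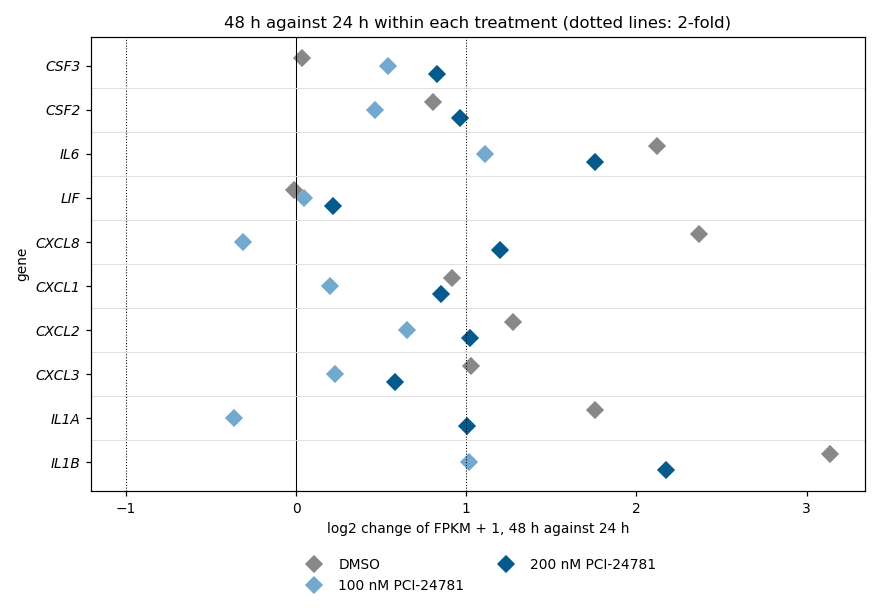
Log2 change of FPKM + 1 from 24 h to 48 h (horizontal axis) for the 10 genes (vertical axis) within DMSO (grey), 100 nM (light blue) and 200 nM (dark blue), with each point from 1 pair of libraries. IL6 and IL1B lie beyond the 2-fold line in all 3 treatments, and LIF lies near 0.

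Markers of leukocytes, which make many of these cytokines in tissue, were read beside this step. Of 7 markers, 6 were in the files, and their summed FPKM was 122 in DMSO 24 h and 92.8 in DMSO 48 h, nearly all of it from CD68, a lysosomal protein. It ranged from 76.5 to 122 at 24 h and from 74.6 to 131 at 48 h. CD3E was at or below 0.04 and ITGAM at or below 0.01 in every library, and PTPRC was between 0.76 and 1.01. CD14 was 0.28 in DMSO 24 h and 1.03 in DMSO 48 h, and LYZ was 2.37 and 3.14. The lower sum at 48 h came mainly from CD68, at 118.95 and 87.88, while PTPRC was 0.81 and 0.76. The summed markers of endothelium were 0.39 and 1.56 and those of fibroblasts 2.37 and 3.98 in these libraries. The part of these markers in the result was not tested.

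The other genes of these pathways were read from 9 lists, and their calls are to be read against the shares of all tested genes given above for each comparison. Some called genes, such as IL24 against DMSO 24 h, passed the filter through the library in which they were high. Of 25 further cytokine genes, 22 were in the files and 13 passed the filter on low values. IL24, a cytokine of the IL-10 family, had an FPKM of 0.43, 4.74 and 10.64 at 24 h, against 10.05, 2.15 and 20.45 at 48 h, in the order DMSO, 100 nM and 200 nM. IL24 was called higher at both doses at 24 h and lower at 100 nM 48 h, as CXCL8 was. CSF1, which drives macrophage production, was between 95.46 and 103.56 in the libraries of 24 h and between 302.01 and 338.29 in those of 48 h. Its levels were separated by time at every dose, with log2 changes by time of 1.69, 1.54 and 1.81. IL34, the second ligand of the CSF1 receptor, was called higher at 200 nM 24 h (10.64 against 2.83), as was the chemokine CXCL16 (2.80 against 0.55). At 200 nM 24 h, 3 of the 13 were called higher, against 4.49% of all tested genes, and 1, CLCF1, lower, against 1.48%. Between the DMSO libraries, IL24, CSF1 and IL18 were called higher, 3 of 13, against 2.49%.

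Of 17 receptor and antagonist genes, 15 were in the files, and 8 or 9 of them passed the filter in these comparisons. SIGIRR, a receptor that restrains interleukin-1 signalling, had 5.41, 2.08 and 1.18 at 24 h, against 3.52, 9.74 and 2.59 at 48 h. It was called lower at both doses at 24 h and higher at 100 nM 48 h, the reverse of CXCL8. No other receptor gene was called in a comparison with DMSO or between the DMSO libraries. The gp130 gene IL6ST stayed between 25.91 and 33.32, and IL1R1 between 0.54 and 1.23.

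None of the 19 genes of NF-kB subunits and upstream kinases was called in the 5 comparisons. In a single direction, higher or lower, between 0.06% and 4.49% of all tested genes were called in these comparisons. A count of 0 in so short a list is near this background. Their medians were between -0.04 and 0.00. At 200 nM 24 h, 2 of them came close to 2-fold, MAP3K14, the kinase NIK, at 13.75 against 6.40 in DMSO, and NFKB1, the p50 precursor, at 6.57 against 13.44. In the added time steps, IRAK2 was called higher at 48 h at 100 nM (1.03) and MAP3K14 lower at 200 nM (-1.09). RELA, the transactivating subunit, was between 52.28 and 63.85 in all libraries. IRAK1, a kinase of the interleukin-1 receptor, had 66.70, 48.98 and 35.99 at 24 h, against 47.29, 49.72 and 38.90 at 48 h. Among 10 genes of the list named NF-kB inhibitors, BCL3 was called in the comparison of the DMSO libraries, higher at 48 h. The list name does not state the action of each gene, and the effect of BCL3 on NF-kB was not tested. BCL3 had 12.34, 11.84 and 10.64 at 24 h, against 31.34, 39.67 and 26.53 at 48 h, so that its levels were separated by time at every dose.

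Of 18 NF-kB target genes other than cytokines, 17 were in the files, and their median log2 change was 0.33, 0.21, -0.26 and 0.17 in the drug comparisons and 0.46 between the DMSO libraries. ICAM1, an adhesion receptor for leukocytes, had 17.24, 20.71 and 19.01 at 24 h, against 66.25, 57.70 and 82.03 at 48 h. PTGS2, the inducible cyclooxygenase, had 0.50, 0.73 and 0.55 at 24 h, against 3.40, 1.01 and 4.59 at 48 h. ICAM1 followed time at each dose, as IL6 did, while PTGS2 was called lower at 100 nM 48 h, as CXCL8 and IL1A were. SAA1, an acute-phase protein gene, was called higher at 200 nM 24 h (1.79 against 0.14), and SERPINB2 at 200 nM 48 h (2.01 against 0.26). Of the 10 to 14 genes that passed the filter, SAA1 and PTX3 were called higher and TNFAIP2 lower at 200 nM 24 h, PTGS2 was called lower at 100 nM 48 h, SERPINB2 higher at 200 nM 48 h, and ICAM1 and PTGS2 higher between the DMSO libraries.

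CEBPB, a C/EBP factor known for the control of IL6, had an FPKM of 25.95, 27.97 and 36.68 at 24 h, against 67.43, 65.26 and 66.99 at 48 h. Its higher value at 48 h with DMSO was the single call among 7 C/EBP genes, 5 of which passed the filter, in the 5 comparisons. At 100 nM, CEBPB, CEBPD and DDIT3 were called higher at 48 h than at 24 h. None of 14 JAK-STAT and SOCS genes and none of 10 genes of mRNA decay and binding was called. In lists of this length this is again near the background of 0.06% to 4.49% in a single direction. In these lists, PTPN11 was between 42.18 and 62.34, PABPC1 between 726.91 and 884.33 and HNRNPD between 132.76 and 193.21.

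The median of the genes of interleukin-1 processing lay below 0 with the drug at 24 h, while IL1A and IL1B lay above it. The median log2 change of these 8 genes was -0.23 at 100 nM 24 h and -0.67 at 200 nM 24 h, against 0.01 and 0.03 over all genes, and 0.11 and -0.26 at 48 h. GSDMD, the pore-forming protein through which mature IL1B leaves the cell, was the gene called, at 200 nM 24 h. It had 16.18, 10.50 and 6.24 at 24 h, against 15.72, 16.29 and 10.24 at 48 h. CASP1, which cleaves the IL1B precursor, had 1.56, 1.04 and 0.34 at 24 h, against 1.69, 1.86 and 1.76 at 48 h, with a change of -0.93 at 200 nM 24 h. In the added time step at 200 nM, 2 of the 7 genes that passed the filter, CASP1 and CASP4, were called higher at 48 h, against 0.748% of all tested genes.

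**Figure D5:**
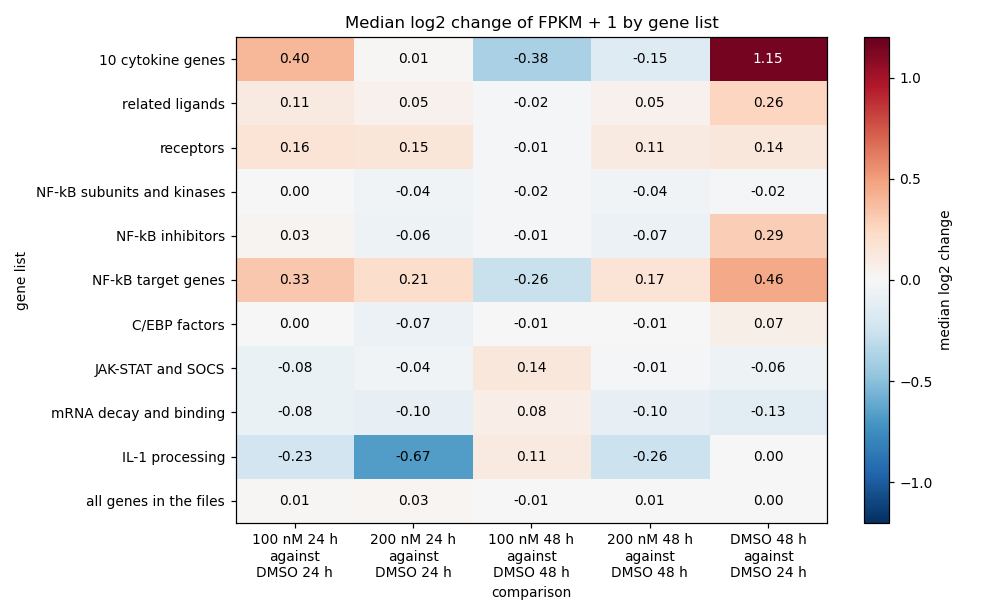
Median log2 change of FPKM + 1 of the 10 cytokine genes, of 9 pathway lists and of all genes (rows) in 5 comparisons (columns), each between 2 libraries, with red for higher and blue for lower. The 10 cytokine genes reach 1.15 between the DMSO libraries, and the genes of interleukin-1 processing have -0.67 at 200 nM 24 h.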

How the data were processed

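RNA of MDA-MB-231 cells was sequenced in 6 libraries, 1 for each dose and time. The authors calculated FPKM per gene and deposited it rounded to 2 decimals. The submitters' processing notes name Bowtie2, RSEM and build hg19. Versions, strand and filters are not given in the sources used here. The RefSeq table of GRCh38.p14 gave symbols for 16585 of the 16623 Gene IDs. Changes were differences in log2(FPKM + 1), called at 2-fold where one library reached an FPKM of 1, and no test across libraries could be made.

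The cytokine genes and the lists were chosen with earlier results of these data known. Named from each list were up to 4 genes called in most of the 5 comparisons, or, with none called, the 2 of highest mean, and the 5 genes most like CSF3. A gene that this rule names is not reported here. Some other genes are named for counts of 5 or fewer, as markers or for their role, after their values were seen.

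Depth was inferred from genes with 1 transcript of 500 to 1500 bases (lengths from GENCODE release 29, 222 to 269 genes per library), and intervals from the fragments it implies with the longest matched transcript. The effective transcript length used by the authors was not known, so these fragment numbers are approximate. The alternatives changed the pseudocount (0.1 or 0.01), the filter (none, or both libraries at an FPKM of 1 or more), the scaling (TPM or median-of-ratios factors) and the threshold (1.5-fold). Python 3.11.15, numpy 2.4.6, pandas 2.3.3, scipy 1.17.1 and matplotlib 3.10.9 were used.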

Additional observations from a re-analysis of the deposited data

Results flagged for a closer look

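At 100 nM, 3 of the genes read here were called in opposite directions at 24 h and 48 h against DMSO of the same time. The difference between the times was not tested, because no condition has a second library. CXCL8 had log2 changes of 1.38 at 24 h and -1.30 at 48 h, a difference of -2.68. IL24 had 2.01 and -1.81, a difference of -3.82, and SIGIRR had -1.06 and 1.25, a difference of 2.31. At 200 nM the log2 changes at 24 h and 48 h were 1.24 and 0.07 for CXCL8, 3.03 and 0.96 for IL24 and -1.56 and -0.33 for SIGIRR, of like sign at both times. IL1A and PTGS2 were also called lower at 100 nM 48 h, with 0.93 and 0.21 at 100 nM 24 h, which were not called. These signs rest on the labels of the DMSO 48 h and 100 nM 48 h libraries, which were taken as given. An exchange of these labels would turn the sign of each 100 nM 48 h change, and it was not tested.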

How the results depend on the processing

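No paired analysis was possible because there is 1 library for each condition, and for the same reason no library could be left out. The spread between cultures is thus unknown. Depth limits CSF3, CSF2, CXCL3 and IL1A, whose lowest values rest on about 3, 12, 18 and 5 fragments. The comparisons of 48 h with 24 h in the drug libraries were added after the values were seen. Of 147 counts and medians of the 10 genes under the alternatives, 123 stayed within 1.5 times (counts) or within 0.1 (medians), and no called gene changed direction. The median at 200 nM 24 h, 0.01, lies so near 0 that its sign turned with median-of-ratios factors, to -0.02, and LIF at 100 nM 24 h, not called, turned sign under the same factors.

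With pseudocounts of 0.1 and 0.01, which by construction widen changes of low values, the median was -0.49 and -0.51 at 100 nM 48 h against DMSO, 1.51 and 1.57 for DMSO 48 h against 24 h, 0.52 and 0.55 for the same step at 100 nM and 1.32 and 1.37 at 200 nM. With either, 4 genes were called higher and 1, CSF3, lower at 100 nM 24 h. Of all 11475 tested genes, 384 and 422 were called higher and 42 and 50 lower there, for 0.1 and 0.01. With TPM the median was 1.33 for the DMSO step and 1.22 for that at 200 nM, and CSF3 was the 1 gene called lower at 100 nM 24 h. Of all genes tested with TPM, 34 of 12390 were called lower there. At a 1.5-fold threshold, 4 genes were called higher and 1 lower at 100 nM 24 h, 4 were higher at 200 nM 24 h and 4 lower at 100 nM 48 h. More of all tested genes are called at this threshold too. At 100 nM 24 h, 640 of 11475 were higher and 144 lower. At 200 nM 24 h, 1463 of 11660 were higher, and at 100 nM 48 h, 203 of 11514 were lower. Where both libraries had to reach an FPKM of 1, 1 gene was higher and 0 were lower at 200 nM 24 h, where the median over the genes that pass was 0.30, and 1 was lower at 100 nM 48 h. With median-of-ratios factors, 1 gene was called higher at 200 nM 24 h, against 472 of 11644 tested genes. For single genes, 31 of 490 changes came past the threshold under an alternative and 6 no longer passed it.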

Other observations

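The genes within 100 kb of the 10 cytokine genes were read in the coordinates of the files, after the values of the cytokine genes were seen. CSF3 has 8 such neighbours in the files. MED24, a Mediator subunit gene that lies 1284 bases from CSF3, had an FPKM of 26.57, 18.51 and 15.90 at 24 h, against 20.99, 23.75 and 18.78 at 48 h, in the order DMSO, 100 nM and 200 nM. Its log2 changes were -0.50, -0.71, 0.17 and -0.15, so that it lay below DMSO at 24 h, as CSF3 did, and above it at 100 nM 48 h. GSDMB, a gasdermin gene 96711 bases away, was on the other side, with 0.77, 2.07 and 3.65 at 24 h, against 2.30, 1.95 and 4.26 at 48 h, and was called higher at 200 nM 24 h. PSMD3, a proteasome subunit gene between 67.09 and 96.12, lies 17401 bases from CSF3 and was not called. PSMD3, ORMDL3, GSDMA, THRA and NR1D1 also lay above DMSO at both doses at 24 h, and LRRC3C was at 0 in the 24 h libraries. MED24 was thus the only neighbour of CSF3 below DMSO at 24 h.

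In the chemokine region of chromosome 4, CXCL5 lies 37417 bases from CXCL3 and was at or below 0.02 in every library, and PF4, 54022 bases from CXCL3, was at or below 0.22. CKAP2L, which lies 9238 bases from IL1A, was between 26.92 and 35.26, while IL1A had its range of 0.13 to 3.57. OSM, a cytokine gene of the IL6 family 15977 bases from LIF, was listed at 0 in 5 libraries and at 0.03 at 200 nM 48 h.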
